A study of Homo sapiens with 32 samples.

Results

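Nascent RNA at 300 minutes after release from a mitotic block was set against nascent RNA in an asynchronous culture of HUH7 cells, an established human hepatoma line that makes many plasma proteins of the liver. The comparison covers the 17102 genes, of 24242 in the table, with at least 10 FPKM (fragments per kilobase of gene, scaled to the library) in either column, and 7140 genes were left out as lower than that in both. It draws on 3 samples labelled at 300 minutes and 3 of the asynchronous culture, 6 of the 32 samples in the series. The cells of the 300 minute group had been kept in 2 mM thymidine for 24 hours, then 2 hours without it and 16 hours with nocodazole, a drug that blocks the spindle, at 0.06 ug/mL, after which mitotic cells were shaken off, washed and replated. The labels call the other culture asynchronous and name no block for it, so that the drugs, the shake-off, the replating and the stage of the cell cycle go together in the 300 minute group and cannot be told apart. Both groups then received 0.5 mM 5-ethynyl uridine (EU), a uridine analogue that is built into new transcripts, for 40 minutes, and the labelled RNA was captured through biotin. The sources used here do not say whether the pulse began or ended at 300 minutes, nor whether the 3 samples of a group came from separate cultures. The authors deposited 1 pooled value per transcript and group, so each comparison sets one value against another, with no replicate error, no replicate check and no test.

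Cells that leave mitosis enter G1, in which retinoblastoma family proteins hold E2F factors back, and the genes of DNA replication and the replication-dependent histone genes are transcribed most as cells pass into S phase. Genes of G2 and mitosis are controlled through the MuvB complex, which sits on a promoter element called CHR and carries repressors early in the cycle and the activators B-MYB and FOXM1 late in it. An asynchronous culture holds cells of all phases, so its value for a phase-bound gene is an average over cells that transcribe the gene and cells that do not. FPKM are levels relative to the other captured RNA, and the spike-in and unlabelled groups were not analysed here, so neither the total output per cell nor the background of unlabelled RNA was measured.

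The values summed to 9.06e+06 FPKM at 300 minutes and 8.80e+06 in the asynchronous culture. Multiplied by the span of the gene, introns included, low values in each column gathered at a fixed step. At 300 minutes, among genes of every class with 1 distinct transcript value, 137 lay at 1 step and 27 at 2. Other low values lay at parts of a step. The steps of both columns gave the 300 minute column 0.888 of the depth of the asynchronous one. If a step is 1 fragment, 10 FPKM over a 10 kb gene came from 40.8 fragments at 300 minutes, with a counting error of 15.6%, and from 45.97 fragments in the asynchronous culture, with one of 14.7%. Intervals given below are 95% intervals and cover counting error alone. The identity of the cells was checked on 15 hepatoma markers, all above 0 in both columns, with a summed level of 6093 FPKM at 300 minutes and 20914 FPKM in the asynchronous culture. Blood markers summed to 622 against 629 FPKM, over 13 of 14 genes present, with the globin genes HBB at 0 in both columns and HBA1 at 0 in the asynchronous one. Stroma and endothelium markers summed to 514 against 194 FPKM over 14 genes, with CLDN5 at 0 in both columns, and their part in the results was not tested.

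Most genes stood within 2-fold of the asynchronous culture at 300 minutes. Of 17102 genes, 13379 (78.2%) were within 2-fold, 1861 (10.9%) were at least 2-fold higher at 300 minutes and 1862 (10.9%) at least 2-fold lower. Folds are ratios of FPKM + 1, so low genes differ by more than their fold shows. The genes between the quartiles lay between -0.38 and 0.54 on the log2 scale, and 430 genes were at least 4-fold higher and 503 at least 4-fold lower. The median gene was 0.11 higher at 300 minutes on the log2 scale. Counted relative to that median, 1515 genes (8.86%) were at least 2-fold higher and 2158 (12.6%) at least 2-fold lower. Gene folds below, and counts made from them, are as deposited, and medians over gene lists have 0.11 subtracted. Counts of genes 2-fold apart in the gene groups below stand beside 10.9% of all genes tested in each direction. At the edge of the 2-fold class, the ubiquitin ligase gene RNF114 stood at 732 against 365 FPKM and was counted, while DGAT1, at 156 against 77.3 FPKM, was not. On the other side SMYD2 was counted at 169 against 340.1 FPKM, and ZNRF3 was not at 81.8 against 165 FPKM.

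**Figure D1:**
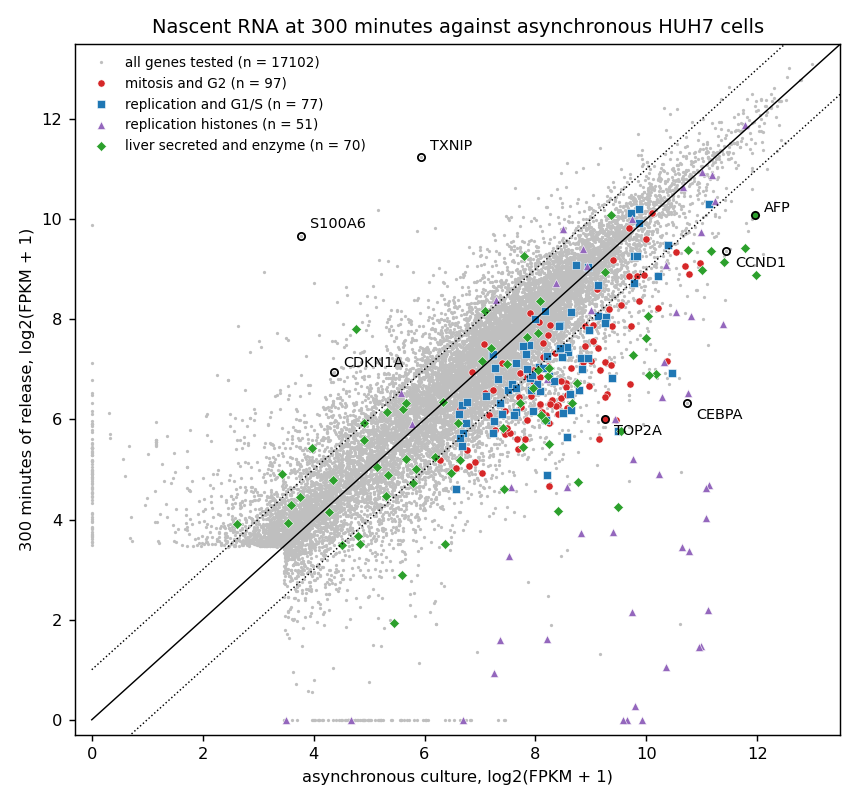
Each gene's log2(FPKM + 1) at 300 minutes (vertical axis) is plotted against the asynchronous culture (horizontal axis), 1 pooled value per group, with the line of equal values and dotted lines at 2-fold. Most mitosis, replication and histone genes lie below the diagonal, most plasma protein genes lie below it, and TXNIP and S100A6 stand far above it.

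Replication-dependent histone genes, which package newly made DNA and are transcribed in S phase, held the lowest values of the comparison. Of 51 linker and core histone genes tested, 37 were at least 2-fold lower at 300 minutes, 12 were within 2-fold and 2 were higher, with a list median of -4.04 on the log2 scale. H2AC20 and H3C3, a core histone H2A and an H3 gene, were at 803 and 762 FPKM in the asynchronous culture and listed at 0 at 300 minutes. H2AC13, another H2A gene, was at 973 FPKM against a listed 0. Altogether 6 of the 51 were listed at 0 at 300 minutes, and 20 rested on 3 steps or fewer there, so that no fold is given for them. The linker histone gene H1-1 stood at 24.8 FPKM (counting interval 11.2 to 51.0) against 2233 FPKM (2078 to 2395), which is 86.6-fold lower. H3C1 was at 29.2 FPKM (10.6 to 62.9) against 1192, and H4C1 at 24.05 against 379.8 FPKM. The linker histone gene H1-4 differed less, at 269 against 1789.5 FPKM.

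The histone genes had not been this low throughout the release. H1-1 was at 5.75 FPKM at 0 minutes, 1239 at 80, 491 at 105, 30.03 at 165 and 24.8 at 300 minutes. H2BC3, an H2B gene, was at 6.33, 364, 263, 83.5 and 9.98 FPKM at the same times, against 1599 FPKM in the asynchronous culture. Both peaked at 80 minutes and were lower at each later time. Of the 51 genes, 36 had their highest release value at 80 or 105 minutes, 42 were lower at 300 than at 165 minutes, and 33 were below the asynchronous culture in all 6 release columns. Over all 17102 genes tested, these counts were 7077, 8868 and 4058.

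A second group of histone genes stood at or above the asynchronous level. H2BC21 was at 889.6 FPKM against 359.6, 2.47-fold higher, and H2BC18 at 332 against 155; these 2 were the genes over 2-fold, and H2BC18 was just under 2-fold relative to the all-gene median. H2AC6, at 3766 against 3532 FPKM, H1-3, at 423 against 331, and H4C4, at 1025 against 855, were within 2-fold. H3C14 and H3C15, identical H3 copies that share reads and are not in the list, were both at 109 FPKM against 4.49. Histone genes are similar in sequence, and the sources used here do not say how reads that match several copies were counted, which leaves the value of a single copy uncertain. Of 6 genes for histone mRNA processing, SLBP, the stem-loop binding protein of histone mRNA, was at 423 against 877 FPKM and 2.07-fold lower, and the other 5 were within 2-fold.

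The promoters of these histone genes carry short elements in common, shown here because their members were low together. Over the 250 bases before to 50 after each start, on both strands, the octamer ATTTGCAT was found in 24 of 50 histone promoters and in 13 of 16 H2B promoters, against 1.47% of 11149 promoters of protein-coding genes tested. The letters TATAAA were found in 33 of the 50, against 6.72%. These searches were added after values had been seen, and a match is a description and not a bound site. Sequences are from RefSeq (GRCh38.p14), 5′ to 3′ on the strand of the gene, as the 120 bases before the start: H2BC11 at chr6:27132796-27132915, H2BC3 at chr6:26043714-26043833 and H2AC4 at chr6:26033619-26033738, all on the minus strand. Capitals mark the octamer, in either orientation, and TATAAA.
H2BC11: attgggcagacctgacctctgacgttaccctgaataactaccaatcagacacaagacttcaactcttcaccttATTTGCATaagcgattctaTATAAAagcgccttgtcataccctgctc
H2BC3: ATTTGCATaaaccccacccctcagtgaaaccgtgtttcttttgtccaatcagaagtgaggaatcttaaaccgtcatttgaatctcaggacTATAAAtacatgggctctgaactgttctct
H2AC4: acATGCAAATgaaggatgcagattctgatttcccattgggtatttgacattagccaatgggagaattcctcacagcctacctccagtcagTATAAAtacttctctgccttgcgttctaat
H2BC11 was at 0.203 FPKM at 300 minutes against 883, and H2AC4 at 15.3 against 2150.3. All 3 genes shown rested on 3 steps or fewer at 300 minutes. They were picked from members at least 2-fold lower, most lowered first, whose 120 bases hold both elements. Their low values therefore follow from this choice.

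Genes of DNA replication and the G1/S transition were lower at 300 minutes as a group, by less than the histones. Of 77 genes, 44 were at least 2-fold lower, 33 were within 2-fold and 0 were higher, with a median of -1.15. The differences were uneven among roles. All 4 members of the E2F role were lower, but E2F1, an activator of S phase genes, stood at 610.1 against 879 FPKM (1.44-fold lower), whereas the atypical repressor E2F8 stood at 53.4 against 721 and E2F7 at 28.7 against 294 FPKM (9.92-fold lower). E2F1 had been at 154 FPKM at 165 minutes and E2F8 at 47.8, so that of these E2F1 alone was far above its 165 minute value at 300 minutes. Nucleotide supply had 7 of 8 genes lower: RRM2, the small subunit of ribonucleotide reductase, was at 121 against 1402 FPKM (11.5-fold), TK1, thymidine kinase, at 69.4 against 359.96, and TYMS, thymidylate synthase, at 95.3 against 441. TYMS overlaps ENOSF1 over 66.5% of its span, and reads of the 2 genes may not be told apart.

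The other roles of replication were uneven. Of 12 origin licensing genes, 5 were at least 2-fold lower: the helicase subunit MCM2 stood at 127 against 456 FPKM and the loading factor CDT1 at 93.9 against 269.6, whereas MCM7 stood at 1182 against 932 and GMNN, the inhibitor of CDT1, at 1117 against 839. Among 17 DNA polymerase and clamp genes 6 were lower; PCNA, the sliding clamp, was at 466 against 1184 FPKM, and the polymerase delta subunits POLD1 and POLD2 were at 157 against 149 and 256 against 254. The G1/S cyclin genes CCNE1 and CCNE2 were at 62.4 against 293 and 69.6 against 199.5 FPKM. Helicase activation genes had 5 of 10 lower. Replication-coupled repair and chromatin had 14 of 20 lower and 0 higher, with a median of -1.15: ASF1B, a histone chaperone, was at 49.4 against 381 FPKM (7.57-fold lower), while UNG, a uracil-DNA glycosylase, was at 539 against 426. Of the 77 genes, 69 were higher at 300 than at 165 minutes and 65 were below the asynchronous culture in every release column. Over all 17102 genes tested, 8187 were higher at 300 than at 165 minutes and 8868 lower, and 4058 were below the asynchronous culture throughout.

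E2F elements stand in the promoters of many replication genes, and 4 are shown because the group was low together. The E2F letters TTTGGCG, with the further forms TTTCGCG, then TTTCCCG and also TTTGCCG, on either strand, was found in 33 of 65 promoters of the list (50.8%), against 12.96% of those of protein-coding genes tested; the forms may overlap one another. Among members at least 2-fold lower it was in 22 of 39, and among those under 2-fold in 11 of 26. The promoters lie at chr15:89575349-89575468 (TICRR, plus strand), chr18:657533-657652 (TYMS, plus), chr1:23531234-23531353 (E2F2, minus) and chr19:4909381-4909500 (UHRF1, plus). Capitals mark the E2F letters.
TICRR: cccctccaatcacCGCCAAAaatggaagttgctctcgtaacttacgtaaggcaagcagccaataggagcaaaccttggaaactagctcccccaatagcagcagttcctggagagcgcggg
TYMS: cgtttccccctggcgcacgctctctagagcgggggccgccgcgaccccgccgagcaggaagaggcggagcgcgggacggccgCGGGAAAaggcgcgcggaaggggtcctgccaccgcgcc
E2F2: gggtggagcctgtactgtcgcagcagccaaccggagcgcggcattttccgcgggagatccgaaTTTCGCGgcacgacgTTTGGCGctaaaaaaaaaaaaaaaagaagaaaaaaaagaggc
UHRF1: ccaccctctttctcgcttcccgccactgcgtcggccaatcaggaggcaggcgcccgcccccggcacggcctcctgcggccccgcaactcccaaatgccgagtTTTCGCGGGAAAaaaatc
TICRR, which fires replication origins, was at 71.6 against 400.2 FPKM (5.52-fold lower), E2F2 at 23.4 against 94.3, and UHRF1, which keeps DNA methylation through replication, at 71.3 against 249. All 4 genes shown were at least 3.45-fold lower. They are members at least 2-fold lower whose printed bases hold the E2F letters, so their low values are not a separate result.

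Genes of G2 and mitosis were the group most evenly below the asynchronous culture. Of 97 genes, 75 were at least 2-fold lower, 22 were within 2-fold and 0 were higher, with a median of -1.73. TOP2A, which untangles sister chromosomes, stood at 63.3 FPKM (counting interval 58.9 to 68.0) against 613 (600.1 to 627), 9.55-fold lower. AURKB, the Aurora kinase of the chromosomal passenger complex, stood at 103 against 835 FPKM, 8.05-fold lower, and PLK1, a kinase of mitotic entry and spindle assembly, at 84.8 against 352, 4.12-fold lower. CCNB1, the mitotic cyclin, was at 171 against 561 FPKM and its kinase CDK1 at 141 against 607. MKI67, the proliferation marker Ki-67, was at 556 against 2005 FPKM. The gene of the list that stood highest against the asynchronous culture, ZWILCH of the kinetochore, was 1.36-fold higher.

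Most roles of the list were lower in most of their members. Of 15 mitotic kinases and activators 13 were lower, of 18 kinetochore and checkpoint genes 15, of 27 kinesin and spindle genes 23, and of 13 condensin, topoisomerase and chromosome genes 11. The kinesin KIF18B was at 47.6 against 563 FPKM, the kinetochore gene SPC25 at 24.6 against 303, and UBE2C, the ubiquitin-conjugating enzyme of the anaphase-promoting complex, at 62.9 against 704; the folds were 11.6, 11.9 and 11.04. The cyclin and CDK1 control role was mixed, with 6 of 11 lower: CKS2, a CDK subunit, was at 1114 against 1095 FPKM, and the phosphatase gene CDC25B at 278 against 239.5. The activators of this group were low themselves, with FOXM1 at 101 against 502 FPKM and MYBL2, which encodes B-MYB, at 79.3 against 306, while the MuvB subunit genes LIN9 and LIN52 were within 2-fold.

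The FPKM of most mitotic genes, a level relative to the other captured RNA, was higher at 0 minutes than at 300 minutes. Output per cell and the background of unlabelled RNA were not measured, so whether blocked cells made more of this RNA was not tested. AURKB was at 316 FPKM at 0 minutes, 515 at 40, 333 at 80, 130.4 at 105 and 66.7 at 165 minutes. CCNB1 was at 619.7, 691, 701, 464 and 272 FPKM at these times, above the asynchronous culture up to 80 minutes. Of the 97 genes, 84 were lower at 300 than at 0 minutes, against 4871 of the 17102 genes tested. Set against 165 minutes the list was divided, with 53 genes lower at 300 minutes and 44 higher, AURKB among the latter. Of the 77 replication genes 61 were higher at 300 than at 0 minutes, as were 12173 of the 17102 genes tested.

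Promoters of the mitotic list are shown for the CHR element, TTTGAA or TTCGAA on either strand, which was found in 58 of 84 (69.0%), against 11.8% of promoters of protein-coding genes tested. A CCAAT box was found in 53 of the 84, against 37.0%, and both together in 40, against 5.00%. Among members at least 2-fold lower, 47 of 64 held the CHR letters, and among the other members 11 of 20. In the replication list 5 of 65 promoters held the CHR letters, in the histone list 18 of 50, and in the secreted and enzyme list of the liver 18 of 63. A CCAAT box was in 34 of the 65, 44 of the 50 and 27 of the 63. The 5 shown lie at chr1:197146670-197146789 (ASPM, minus strand), chr15:69414229-69414348 (KIF23, plus), chr11:62123891-62124010 (INCENP, plus), chr16:29790631-29790750 (KIF22, plus) and chr16:2429327-2429446 (CCNF, plus). Capitals mark the CHR and CCAAT letters.
ASPM: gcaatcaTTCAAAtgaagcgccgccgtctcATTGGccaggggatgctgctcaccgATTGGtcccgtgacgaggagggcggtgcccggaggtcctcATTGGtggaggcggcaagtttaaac
KIF23: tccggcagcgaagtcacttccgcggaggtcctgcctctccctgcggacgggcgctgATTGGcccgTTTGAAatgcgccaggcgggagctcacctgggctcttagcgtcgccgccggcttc
INCENP: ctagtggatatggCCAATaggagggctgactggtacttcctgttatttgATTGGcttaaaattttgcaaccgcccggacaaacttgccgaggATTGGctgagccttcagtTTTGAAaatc
KIF22: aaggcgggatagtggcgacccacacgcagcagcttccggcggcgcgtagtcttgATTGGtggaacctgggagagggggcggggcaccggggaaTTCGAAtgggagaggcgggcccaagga
CCNF: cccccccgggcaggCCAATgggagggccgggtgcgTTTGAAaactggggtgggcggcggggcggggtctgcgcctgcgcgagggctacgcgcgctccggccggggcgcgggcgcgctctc
ASPM, a spindle pole protein gene, was at 86.7 against 613 FPKM and KIF23, a kinesin of the cytokinetic midzone, at 89.5 against 629. INCENP, the scaffold of the passenger complex, was at 73.6 against 379.8 FPKM, KIF22, a chromosome-arm kinesin, at 67.7 against 339.9, and CCNF, cyclin F, at 47.6 against 223. The 5 genes were between 4.61- and 6.999-fold lower. As with the histone promoters, the choice was made among members at least 2-fold lower, most lowered first. Only members whose printed bases hold both the CHR and the CCAAT letters were taken, and more lowered members without both were passed over. The low values of the 5 therefore follow from this choice and do not link the letters to the level.

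**Figure D2:**
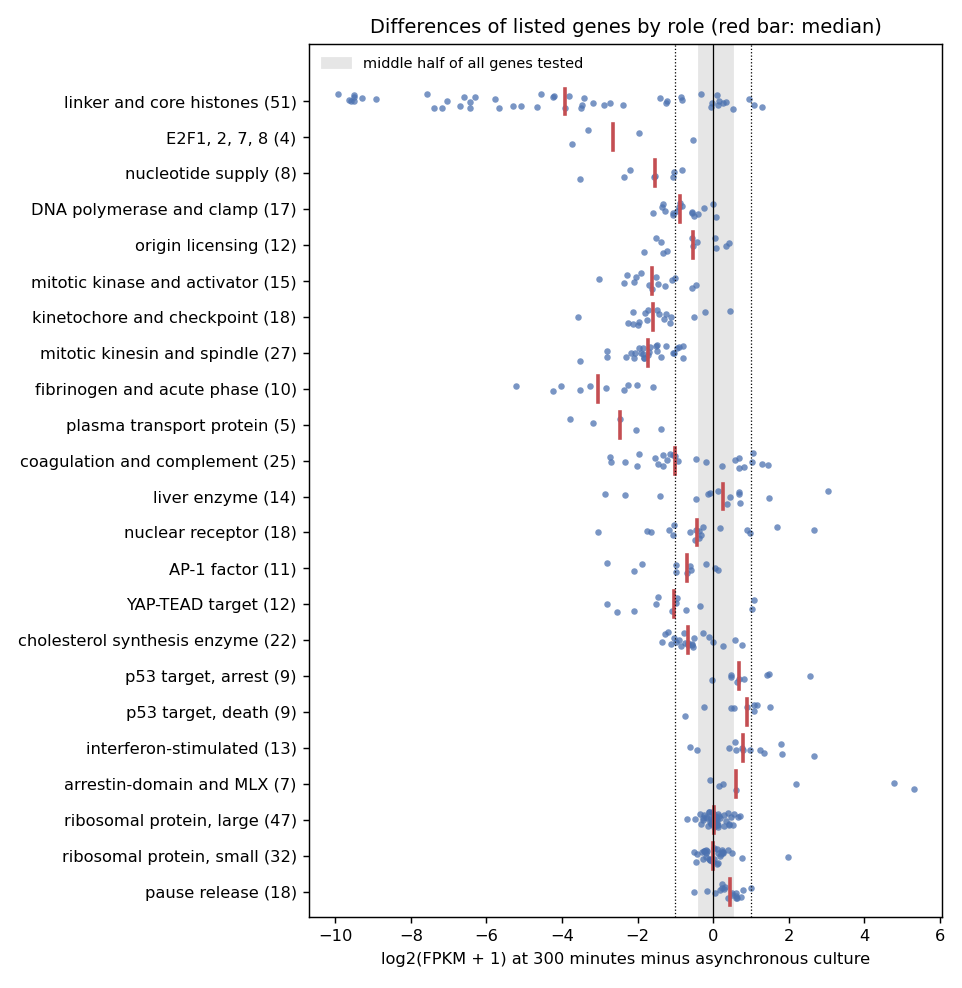
Points are genes, placed by the log2(FPKM + 1) difference of 300 minutes minus the asynchronous culture, in rows by role with the number tested; red bars are medians as deposited, the grey band runs between the quartiles of all genes tested (-0.38 to 0.54) and dotted lines are 2-fold. Histone, kinase, kinetochore and spindle rows lie mostly left of the lower dotted line, ribosomal protein rows lie around 0, and histone points far to the left rest on few or no steps at 300 minutes.

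Regulators of G1 were divided. Of 35 genes, 8 (22.9%) were at least 2-fold higher, 4 (11.4%) lower and 23 within 2-fold, against 10.9% each way over all genes tested. The list median was -0.05 (0.06 as deposited). CCND1, cyclin D1, the growth-factor-driven partner of CDK4 and CDK6, stood at 662 against 2766 FPKM, 4.18-fold lower, after 3279 FPKM at 105 and 2623 at 165 minutes. Its kinases CDK4, at 1523 against 1041, and CDK6, at 251 against 152 FPKM, were within 2-fold. The CDK inhibitor genes pointed both ways: CDKN1A, which encodes p21, was at 122 against 19.8 FPKM (5.93-fold higher) and CDKN1C at 31.6 against 14.2, whereas CDKN2C was at 26.9 against 79.96 and CDKN2A at 155 against 391. CDKN1C was just under 2-fold relative to the all-gene median. CCNG2, an atypical cyclin tied to cell cycle exit, was at 349 against 33.3 FPKM, 10.2-fold higher. MYC was at 3375 against 1969.6 FPKM and within 2-fold, while its partner MAX, at 492 against 184, and the antagonist MXD1, at 1708 against 672, were higher; MAX overlaps FNTB over part of its span.

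Targets of p53 stood above the asynchronous culture more often than below it: 8 of 32 were higher by 2-fold or more and 1 was lower, and the median was 0.37. Besides CDKN1A, the kinase gene PLK2 was at 2678 against 963 FPKM, the stress gene SESN2 at 319 against 119, and the death receptor gene TNFRSF10B at 593 against 262. Of 9 cell death genes, 4 were higher as deposited and 2 relative to the all-gene median. Of 5 genes listed under p53 feedback 1 was higher, the cyclin gene CCNG2 given above. CCNG2 is also in the G1 list, and its link to p53 was not tested. MDM2, at 364 against 492, and PPM1D, at 102 against 108, were within 2-fold. GDF15 was the gene below 2-fold, at 839 against 1699 FPKM. CDKN1A had been at 645 FPKM at 105 minutes, so that its level at 300 minutes was lower than earlier in the release and still above the asynchronous one.

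The protein-coding genes furthest above the asynchronous culture belonged to no single pathway of the lists. Among protein-coding and long noncoding genes S100A6, a calcium-binding protein gene, led at 815 FPKM (counting interval 743 to 893) against 12.6 (5.39 to 24.6), 59.98-fold higher. Its lowest release value was 435 FPKM at 0 minutes. TXNIP, an arrestin-domain protein that binds thioredoxin and limits glucose uptake, was at 2422 FPKM (2349 to 2497) against 60.2 (49.8 to 72.4), 39.6-fold higher, and had stood at 334, 824 and 1620.2 FPKM at 0, 80 and 165 minutes. Its paralog ARRDC4 was at 60.7 against 1.25 FPKM, from 326 and 8 steps. ARRDC4 passed the filter through the 300 minute column alone, so that its direction follows from it. TXNIP was over 10 FPKM in both columns. Both genes had their highest value of the 7 columns at 300 minutes. MLXIP and MLXIPL, the partners of MLX that drive both genes under glucose, were within 2-fold at 51.8 against 46.5 and 16.1 against 17.1 FPKM.

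TXNIP is shown for the paired E-box of its promoter, a carbohydrate response element written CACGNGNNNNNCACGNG, where N is any base. It was found in 17 of 11149 promoters of protein-coding genes tested (0.152%), and this search was added after values had been seen. The 120 bases lie at chr1:145996580-145996699 on the minus strand, with the paired element in capitals.
TXNIP: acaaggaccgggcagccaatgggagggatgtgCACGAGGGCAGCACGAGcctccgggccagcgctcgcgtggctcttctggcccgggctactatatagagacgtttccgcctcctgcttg

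Others among the furthest genes were late in the release. PLCXD3, a phospholipase-domain gene, was at 8.58 FPKM at 105 minutes, 31.1 at 165 and 188 at 300 minutes against 7.09. RAB27B, a small GTPase of vesicle release, was at 44.5, 122 and 324 FPKM against 20.4, and the long noncoding RNA gene LINC01559 at 36.3, 64.9 and 231 against 5.24. SSUH2 was at 98.98, 265 and 584 FPKM against 35.2. These 4 had their highest value at 300 minutes and were between 15.2- and 37.2-fold higher than the asynchronous culture.

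A second set had been high from the start of the release. GEM, a GTPase of calcium channels and the cytoskeleton, was at 181 FPKM at 0 and 161 at 300 minutes against 6.27. F2RL1, the receptor PAR2, was at 493 and 863 FPKM against 57.03, GPRC5A, an orphan receptor gene, at 184 and 402 against 23.1, and CD44, the hyaluronan receptor, at 206 and 356 against 23.3. COL7A1, the anchoring-fibril collagen gene, was at 87.4 and 173 FPKM against 7.34, and KCNE4, a potassium channel subunit gene, at 57.6 and 197 against 10.3. CSF3, which encodes the cytokine G-CSF, was at 35.4 FPKM (24.3 to 49.0) and listed at 0 in the asynchronous culture. BIRC7, an inhibitor of apoptosis, stood at 35.8 FPKM against 0.4703, a single step. MTMR11 was at 209.98 against 9.11 FPKM. Of the genes in this set, GEM, COL7A1, CSF3, BIRC7 and MTMR11 were under 10 FPKM in the asynchronous culture. Their direction therefore follows from the filter.

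**Figure D3:**
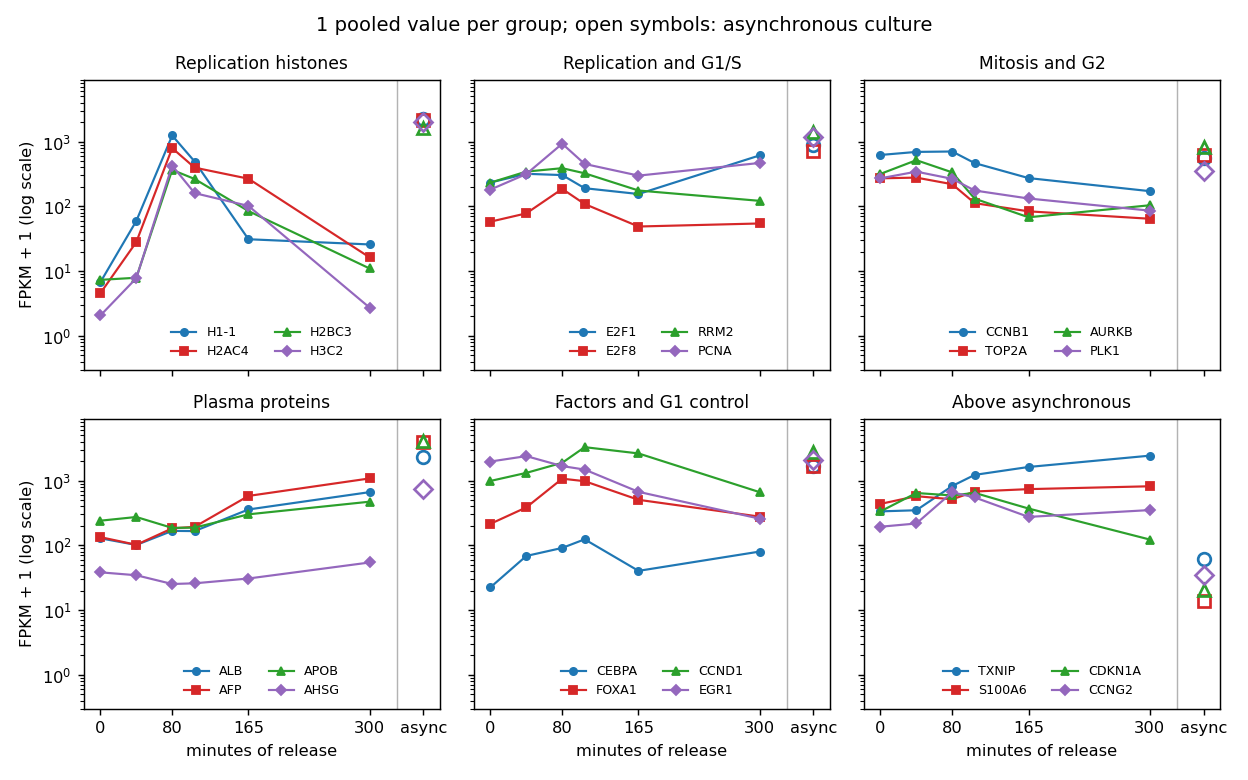
FPKM + 1 on a log scale is plotted over minutes of release for 24 genes in 6 groups, with open symbols at the right for the asynchronous culture; each symbol is 1 pooled value. Histone genes pass through a maximum at 80 minutes and end far below the open symbols, AURKB ends at 103 against 835 FPKM, and TXNIP and S100A6 end above their open symbols.

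Immediate early genes, which encode short-lived factors induced by growth signals, were mostly below the asynchronous culture by 300 minutes. Of 52 genes, 13 were at least 2-fold lower and 7 higher, with a median of -0.69. At 300 minutes 48 of the 52 were lower than at 165 minutes, against 8868 of the 17102 genes tested. FOS was at 141 against 993 FPKM (6.99-fold lower) after 5363 at 40 minutes, and EGR1 at 257 against 2067 (8.01-fold lower) after 2385. JUND was at 249 against 1073 FPKM and KLF2 at 168 against 1017. The higher members were EGR2, at 74.02 against 17.8, KLF4, a zinc finger factor, at 1217 against 292, ZFP36, which encodes an mRNA decay factor, at 4717 against 1503, and DUSP5, a phosphatase of ERK, at 1805 against 836, among others. DUSP5 was just under 2-fold relative to the all-gene median. Thus EGR1 and EGR2, paralogs, lay on opposite sides.

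BMP and TGF-beta response genes had 8 of 18 members (44.4%) at least 2-fold lower and 0 higher, with a median of -0.91. Over all genes tested the share was 10.9% each way. ID1, an inhibitor of bHLH factors and a BMP target, was at 870.4 against 3655 FPKM, ID4 at 268 against 1244 and ID3 at 968 against 2051, while ID2 was within 2-fold at 3474 against 4280.4. SMAD6, an inhibitory SMAD, was at 172 against 606 FPKM, and TGFBI, a matrix protein gene, at 127 against 1057. Of the 18 genes, 17 were lower at 300 than at 165 minutes, against 8868 of the 17102 genes tested.

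The list around YAP-TEAD and SRF, factors that respond to cell shape and adhesion, had 17 of 62 genes (27.4%) lower and 9 (14.5%) higher. Over all genes tested the share was 10.9% each way. Relative to the all-gene median 22 were lower and 6 higher, and the list median was -0.47. The list holds pathway members and adhesion genes beside targets, and the 12 YAP-TEAD targets had 6 lower and 2 higher. CCN2, a matricellular protein gene, was at 628 against 4376 FPKM (6.96-fold lower) after 3538 at 80 minutes. The tissue factor gene F3 and the receptor gene AXL were at 1067 against 507 and 41.1 against 19.6 FPKM, both just over 2-fold as deposited and under it relative to the all-gene median. TEAD4 was at 50.8 against 219.9 FPKM and TEAD2 at 94.1 against 31.6, paralogs on opposite sides. Actin cytoskeleton targets of SRF had 6 of 25 lower and 0 higher, ACTB at 189 against 470.2 FPKM. Integrin and adhesion genes had 5 of 14 higher, led by CD44 and ITGA2, at 624 against 128, and 1 lower, ITGAV, at 552 against 1156. Of the 14, 3 reached 10 FPKM at 300 minutes alone, so that the direction of those follows from the filter.

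Genes for plasma proteins and enzymes of the liver differed by role. Of 70 genes for secreted proteins and liver enzymes, 38 (54.3%) were at least 2-fold lower, 7 (10.0%) higher and 25 within 2-fold, with a median of -1.21. Over all genes tested the share was 10.9% each way. All 10 fibrinogen and acute phase genes tested and all 5 plasma transport proteins were lower. Coagulation and complement genes had 13 of 25 lower and 4 higher, and apolipoprotein and lipoprotein assembly genes 5 of 13 lower and 1 higher. Liver enzymes had 3 of 14 lower and 2 higher, with a median of 0.14. ALB, albumin, stood at 662 FPKM (counting interval 643 to 681) against 2295 (2262 to 2329), 3.46-fold lower, and AFP, alpha-fetoprotein, at 1078 against 3964, 3.67-fold lower. ITIH2, a carrier of hyaluronan in plasma, was at 18.1 FPKM (16.3 to 20.1) against 713 (702 to 725), 37.4-fold lower. SERPINA1, the antitrypsin gene, was at 119.6 against 1149.6 FPKM, APOB, of low-density lipoprotein, at 471 against 4016, and AHSG, fetuin A, at 53.4 against 747. The 3 fibrinogen chain genes FGA, FGB and FGG were at 685, 564 and 507 FPKM against 3502, 2688 and 2051. ORM1 and ORM2, similar copies of an acute phase glycoprotein gene, were at 25.8 against 434 and 17.1 against 338 FPKM, and ORM2 overlaps AKNA.

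Levels over the release differed between these genes. ALB was at 128 FPKM at 0 minutes, 165 at 105, 357 at 165 and 662 at 300 minutes, and AFP at 133, 192, 579 and 1078; both were highest of the release at 300 minutes. ITIH2 was at 39.5, 18.4, 16.7 and 18.1 FPKM at these times, with no such increase. Of the 70 genes, 52 were higher at 300 than at 165 minutes and 46 were below the asynchronous culture in every release column. Over all 17102 genes tested, these counts were 8187 and 4058. Of the 7 higher genes, 5 were at least 2-fold higher relative to the all-gene median. Among the 7, CYP3A5, a drug-metabolizing cytochrome P450 within the span of ZSCAN25, was at 224 against 26.2 FPKM. ABCA1, the cholesterol efflux transporter, was at 615 against 222, and the complement genes C9 and C6 at 41.9 against 14.6 and 14.03 against 5.18. Of the 70 genes, 2 reached 10 FPKM at 300 minutes alone, C6 among them, so that their direction follows from the filter. Among the 15 hepatoma markers, which share most members with this list, 12 were at least 2-fold lower and 0 higher, while the HNF4A and FOXA2 factor genes were within 2-fold.

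The liver transcription factors differed sharply from one another. Of 34 genes, 12 (35.3%) were at least 2-fold lower and 2 (5.88%) higher, against 10.9% each way over all genes tested. The list median was -0.55. CEBPA, an activator of hepatocyte genes, stood at 79.2 FPKM (63.1 to 97.9) against 1702 (1629 to 1777), 21.2-fold lower, whereas its paralog CEBPB stood at 749 against 391 and was within 2-fold; CEBPB overlaps an antisense gene. ONECUT1 was at 157 against 1351 FPKM, 8.55-fold lower, and the pioneer factor gene FOXA1 at 277 against 1656, 5.97-fold lower. FOXA2, FOXA3 and GATA6 were within 2-fold, as was HNF4A, at 1075 against 947. Among nuclear receptors, the bile acid receptor gene NR1H4 was at 17.7 against 154 FPKM (8.301-fold lower), and the clock repressor gene NR1D1 at 289 against 44.4 (6.397-fold higher). NR1I2, the xenobiotic receptor PXR, was at 64.7 against 19.2 FPKM.

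Lipid synthesis genes had 15 of 49 (30.6%) lower and 2 (4.08%) higher, against 10.9% each way over all genes tested, with a median of -0.70. ACSL4, an acyl-CoA ligase, was at 61.5 against 494 FPKM and FADS2, a fatty acid desaturase, at 79.6 against 397. Of 22 cholesterol synthesis enzymes 5 were lower and 0 higher, with ACAT2, which joins acetyl-CoA units, at 341 against 870.1 FPKM. Regulators stood on both sides: INSIG1 was at 259.7 against 584 FPKM, while INSIG2 was at 201 against 83.5 and MYLIP, which marks the LDL receptor for decay, at 598 against 237.

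Stress and metabolism genes were mixed, with 19 of 105 higher (18.1%) and 14 lower (13.3%), against 10.9% each way over all genes tested. AKR1C1 and AKR1C2, aldo-keto reductases whose near-identical genes can share reads, were at 2748 against 570.2 and 1975 against 425 FPKM, but GCLM, another NRF2 target that makes glutathione, was at 241 against 924. CYP1B1, a target of the aryl hydrocarbon receptor, was at 219.6 against 29.8 FPKM after 2322 at 105 minutes. Interferon-stimulated genes had 5 of 13 higher and 0 lower, led by ISG15, at 287 against 44.5, and IRF9, at 358 against 101. Of the 13, 5 reached 10 FPKM at 300 minutes alone, so that the direction of those follows from the filter. NF-kB targets split, with BIRC3, an inhibitor of apoptosis, at 188 against 19.2 FPKM and NFKB2 at 207 against 61.5, and the chemokine genes CXCL1 and CXCL8 at 179 against 2224 and 540.004 against 3919. All 15 cytosolic heat shock genes were within 2-fold. DDIT4, an inhibitor of mTORC1, was at 444 against 94.4 FPKM and SDF2L1, of the endoplasmic reticulum, at 27.99 against 155.

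Genes of general gene expression were near the asynchronous level. Of 123 ribosome genes, 119 were within 2-fold, and all 47 large subunit proteins were; FAU, which encodes a small subunit protein fused to a ubiquitin-like part, was the ribosomal protein gene over 2-fold, at 234 against 58.4 FPKM. The biogenesis genes MYBBP1A, at 679 against 188, and RRP9, at 273 against 81.8, were higher, and UBTF, the RNA polymerase I factor, at 69.3 against 240.1, was lower. All 18 pause release genes were within 2-fold, and of 49 RNA polymerase II machinery genes 3 were lower. Tubulin genes, whose microtubules nocodazole takes apart, pointed both ways: TUBB3 was at 534 against 44.4 FPKM and TUBB2A at 907 against 426, while TUBB was at 484 against 1165, TUBB4B at 215 against 686 and TUBA4A at 23.98 against 132. TUBB2A was just under 2-fold relative to the all-gene median. The nuclear noncoding RNA genes MALAT1, at 3604 against 2408, and NEAT1, at 5382 against 3582, were within 2-fold, and HULC, a noncoding RNA of liver cancer that lies within another gene's span, was at 103 against 1356.

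Among markers of other cells, 4 of the 5 stroma or endothelium markers tested were at least 2-fold higher, among them PDGFRA, at 177 against 38.3 FPKM, and COL1A1, at 17.1 against 3.002. Of the 5, 2 reached 10 FPKM at 300 minutes alone, COL1A1 among them, so that their direction follows from the filter. With genes down to 1 FPKM included, the median of the 13 marker genes was -0.04. Of the 7 blood markers tested 2 were higher and 1 lower, with T-cell CD3D at 23.1 against 5.88 FPKM and LYZ at 132 against 364. Of the 7, 3 reached 10 FPKM at 300 minutes alone, CD3D among them.

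Long genes stood apart from short ones. Among 419 protein-coding genes with a span over 300 kb, 26.5% were at least 2-fold lower at 300 minutes and 3.58% higher, with a median of -0.59. In the 4027 genes of 10 to 30 kb, 7.18% were lower and 11.9% higher, with a median of 0.12. The 701 genes of up to 3 kb were spread to both sides, with 25.8% lower and 16.1% higher; without histone genes these shares were 21.8% and 17.03% of 634 genes. Short genes rest on fewer fragments at the same FPKM, so counting error is larger there. Among long genes, ATP2B2, a plasma membrane calcium pump gene named after its values were seen, was at 4.53 against 299 FPKM, 54.1-fold lower. The span is that of GRCh38.p14, while the authors' build is hg19.

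**Figure D4:**
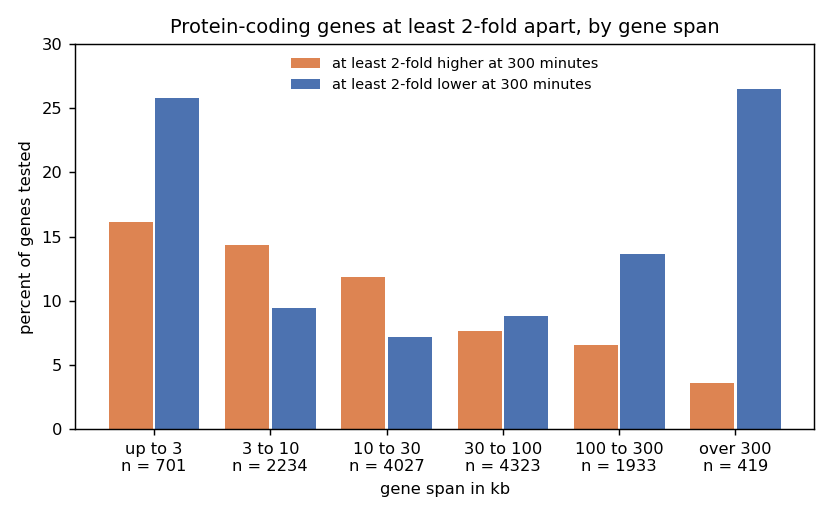
Bars give the percent of protein-coding genes tested that were at least 2-fold higher (orange) or at least 2-fold lower (blue) at 300 minutes, by gene span, with the number of genes under each pair. Genes over 300 kb were lower in 26.5% and higher in 3.58%, while genes of 10 to 30 kb were higher in 11.9% and lower in 7.18%.

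Earlier release times were set beside these values. They share the asynchronous column, so the comparisons are not independent and no overlap between them is given. Above the asynchronous culture by 2-fold or more were 3815 of 17908 genes (21.3%) at 80 minutes, and below it 2385 (13.3%), against 2205 of 17152 (12.9%) and 1921 (11.2%) at 165 minutes and 10.9% in each direction at 300 minutes. The mitotic list had a median, as deposited, of -0.53 at 80 minutes, -1.50 at 165 and -1.62 at 300 minutes. The histone list, processing genes included, went from -0.85 to -1.75 and -3.48, while the replication list was at -1.10, -1.55 and -1.03. Immediate early genes were at 1.19, 0.44 and -0.58 and p53 targets at 1.17, 0.51 and 0.48. Secreted and enzyme genes of the liver were at -1.49, -1.53 and -1.10. The counts of genes above the asynchronous culture were thus lowest at 300 minutes of the 3 times, and the mitotic and histone lists were furthest below it then. At 0 minutes, however, the histone list was further below it, with a median of -4.32, while the mitotic list was at -0.84 and the replication list at -1.56.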

How the data were processed

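EU-labelled RNA of HUH7 cells was captured and sequenced from stranded libraries without ribosomal RNA, per the labels' protocols. The authors deposited FPKM per RefSeq transcript, 1 pooled column for each of 7 groups, with 3 samples labelled per group used here. Per the submitters' processing notes, the build was hg19 and the tools included TopHat, Bowtie2 2.2.9, bedtools and bcl2fastq. Their roles, the counting of strand and shared reads, the pooling of libraries and any part of the spike-in samples in the asynchronous column are not stated in those sources. FPKM multiplied by gene span repeated in steps, so the authors' lengths include introns. Partial values lay at whole parts of 1/301 of a step (65.1% of 318 low noncoding genes at 300 minutes).

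Of 48205 transcripts, 47127 (97.8%) matched a RefSeq gene table (GRCh38.p14, used for names, spans and overlaps; the positions printed are those of the RefSeq promoters). Each gene took the mean of its distinct transcript values: 19013 genes had 1 and 5229 several. Genes with at least 10 FPKM in either column were kept. Differences are on log2(FPKM + 1), computed with Python 3.11.15 and pandas 2.3.3, and "2-fold" is a size and not a test. The planned tests need values per library and could not be run. Counting intervals are exact 95% Poisson intervals over steps, and fragments lack molecular identifiers, so they need not be separate molecules.

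The members and the 19 gene lists (977 symbols, 971 in the table, 916 tested) were chosen with earlier results of these data known. Genes were named by rule: the 12 furthest in each direction among protein-coding and long noncoding genes, the same among genes whose columns reach 100 and 5 FPKM, the 2 highest and 2 lowest of each role with 3 or more members, and a list of familiar genes; others were named after their values were seen, and so were gene families and some motifs. Promoter sequences come from RefSeq (GRCh38.p14), and a RefSeq promoter was matched for 11149 of the 13637 protein-coding genes tested. Alternatives changed the pseudocount, the filter, the scaling and the transcript rule. The script was tested on simulated data. A few genes that met the naming rule are not reported here.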

Additional observations from a re-analysis of the deposited data

How the results depend on the processing

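Counts of genes at least 2-fold apart kept within 1.5 times of the main values under all 9 alternatives run, from 1308 to 2358 higher and 1429 to 2158 lower. The higher genes were 50% of those apart as deposited, 41.2% with the all-gene median subtracted and 53.3% with a filter of 1 FPKM. Of 382 listed or named genes at 2-fold, 361 stayed there with a pseudocount of 5 FPKM, 369 with that median subtracted, 378 after quantile normalization and 380 with the highest transcript value of each gene. The medians of 6 lists changed sign under at least 1 alternative. For 5 of them, the G1 regulators, ribosome, tubulin, noncoding and blood marker lists, the median as deposited lay between -0.03 and 0.20; the blood markers went from 0.20 to -0.23 with a filter of 50 FPKM. The stroma and endothelium markers had a median of 1.62 as deposited over 5 genes, -0.040 with a filter of 1 FPKM over 13 genes and 0.13 over 10 genes with at least 50 steps, the last a filter chosen after seeing the data, as was a restriction to protein-coding and long noncoding genes. With the filter of 1 FPKM the median of the secreted and enzyme list was -0.69, against -1.10 as deposited. No paired analysis was possible because each group has 1 pooled column, and for the same reason no replicate could be left out. Depth limits short and low genes: 527 of the genes tested rested on 3 steps or fewer at 300 minutes.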

Other observations

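Further gene groups, gathered by symbol after their values were seen and described with no test, stood away from the asynchronous culture. Metallothionein genes, which bind zinc and copper, had 6 of 7 tested members at least 2-fold lower at 300 minutes and 0 higher. MT2A was at 5.75 FPKM against 231, and at 146 FPKM at 40 minutes, and its 300 minute value rested on 2 steps. MT1X was at 57.4 against 150.2 FPKM (2.59-fold lower) and MT1E at 48.2 against 157, while MT1G was within 2-fold at 13.05 against 6.62. SLC30A10, a transporter of manganese, was at 26.1 against 826 FPKM, 30.5-fold lower. The metal response letters TGCACNC or TGCGCNC, on either strand, were in both metallothionein promoters that RefSeq gave (GRCh38.p14), but also in 37.7% of promoters of protein-coding genes tested. Both promoters are shown for the spacing of these letters, in capitals, over 120 bases at chr16:56608464-56608583 (MT2A) and chr16:56682350-56682469 (MT1X), plus strand.
MT2A: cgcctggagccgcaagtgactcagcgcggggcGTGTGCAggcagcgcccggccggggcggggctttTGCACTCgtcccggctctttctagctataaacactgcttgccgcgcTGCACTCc
MT1X: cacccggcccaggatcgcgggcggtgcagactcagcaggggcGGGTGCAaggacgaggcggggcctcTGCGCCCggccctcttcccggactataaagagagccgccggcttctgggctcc

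Receptor genes of the natural killer complex were higher together: all 5 KLRC and KLRK genes were at least 2-fold higher, with KLRC3 at 405 against 32.6 FPKM and KLRC2 at 351 against 30.3. Of the 5, 2 reached 10 FPKM at 300 minutes alone, so that their direction follows from the filter. All 5 are neighbouring genes, and some overlap a read-through gene. The KLRC genes among them are similar to one another, and such genes can share reads. Of 10 butyrophilin genes listed, 6 were tested and were at least 2-fold higher as deposited, 4 of them also relative to the all-gene median. BTN3A1 was at 42.4 against 9.43 FPKM, and 3 of the 6 reached 10 FPKM at 300 minutes alone, so that their direction follows from the filter. Of 10 calpain protease genes 6 were higher, with CAPN2 at 933 against 272 and CAPN8 at 110.5 against 18.6. Of the 10, 1 reached 10 FPKM at 300 minutes alone, so that its direction follows from the filter. Of 14 S100 genes tested 6 were higher and 1 lower, with S100A4 at 57.8 against 4.59 FPKM and S100A10 within 2-fold. Of the 14, 4 reached 10 FPKM at 300 minutes alone, S100A4 among them, so that their direction follows from the filter. Of 9 keratin genes tested 4 were at least 2-fold higher and 2 lower. KRT19, a keratin of bile duct epithelium, was at 1935 against 351 FPKM, whereas the hepatocyte keratins KRT8 and KRT18 were within 2-fold. Of the 9, 3 reached 10 FPKM at 300 minutes alone, so that their direction follows from the filter. Of 460 ZNF zinc finger genes, 83 (18.04%) stood above by 2-fold or more and 14 (3.04%) below, against 10.9% each way over all genes tested. Their median was 0.40 relative to all genes.

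Of the receptors for hydroxycarboxylic acids, which answer to metabolites such as ketone bodies, 2 of 3 were lower: HCAR3 was at 9.52 FPKM (4.11 to 18.8) against 381, and HCAR2 at 2.71 against 309 from 2 steps at 300 minutes, while HCAR1 was within 2-fold. HCAR2 and HCAR3 are near-identical and can share reads. HOXC genes had 4 of 7 lower and 0 higher, with HOXC8 at 32.9 against 162 FPKM. B4GAT1, a glycosyltransferase of dystroglycan, was at 8.62 FPKM (3.75 to 17.1) against 351, and FST, the activin antagonist follistatin, at 56.4 against 820.2. UCN2, a stress peptide gene that overlaps PFKFB4, was at 50.2 FPKM against 1.57 from 1 step, and KLHL24, of keratin turnover, at 574 against 39.4, 14.2-fold higher. UCN2 passed the filter through the 300 minute column alone, so that its direction follows from it.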
